A study of Homo sapiens with 30 samples.

Results

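The genes PRDM1, POU2AF1, PAX5, BCL6, BACH2, IRF8, SPIB and POU2F2 encode transcription factors of B cells and plasma cells, or, for POU2AF1, a coactivator of such factors. They were taken by symbol, so that all 8 named genes were found among the 25680 gene symbols of the deposited tables, and each was represented by its RefSeq transcript with the highest mean count. RNA sequencing of OPM2 and H929, both established human multiple myeloma lines, gave their levels once the cells had spent 24 h in 100 nM dBRD9-A or in DMSO, its solvent. dBRD9-A is a degrader of BRD9, the bromodomain protein that marks the non-canonical form of the BAF chromatin remodeller. Each of the 4 groups (OPM2 with DMSO, OPM2 with dBRD9-A, H929 with DMSO, H929 with dBRD9-A) held 3 libraries, and nothing in the labels says that these came from separate cultures, so the p-values measure only the spread between libraries, which may be technical. The labels name no transgene, hairpin or further treatment in these 12 libraries, and another 18 listed samples were not analysed here.

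The switch from B cell to plasma cell is carried by factors that repress each other. PAX5, BCL6 and BACH2 hold the B cell and germinal centre state, with BACH2 and BCL6 acting against PRDM1, and PRDM1 (Blimp-1) in turn shuts down PAX5, SPIB, CIITA and MYC while IRF4 and XBP1 build the secretory cell. POU2F2 (Oct-2) binds octamer elements of immunoglobulin genes and POU2AF1 (OCA-B, also called BOB.1) is its B-lineage coactivator, which myeloma cells are known to retain. IRF8 and SPIB, an interferon regulatory factor and an ETS factor, bind composite elements in B cells and act against plasma cell differentiation.

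Totals ran from 42895389 to 76600945 counts in 11 libraries and came to 24524193 in OPM2 dBRD9-A replicate 2. That library stood apart from its group, since the SD of its log2 difference from its group mates was 0.896 over 11467 genes, against 0.149 to 0.259 in the 9 libraries of the other groups. For members whose treatment call changed without it, values are given with and without it. For the related lists this is done only in part. The lines carried the defining transcripts of plasma cells, whose 19 genes summed to between 15505 and 18495 CPM (the unit of counts scaled to library size, here with TMM factors) in OPM2 with DMSO and to between 22601 and 24671 in H929 with DMSO. Of the mature B cell markers, MS4A1 and CD22 had no count in any OPM2 library.

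POU2AF1 and PRDM1 were the abundant members of the group in both lines, and PAX5 gave at most 11 counts in any library. To compare genes with each other, CPM was divided by the length of the transcript in kilobases (kb). On this scale POU2AF1 was at 151 ± 5.78 CPM per kb in OPM2 with DMSO and 145 ± 17.8 in H929 with DMSO (SD, n = 3). PRDM1 came next, at 95.6 ± 6.83 and 97.1 ± 10.7 CPM per kb. In OPM2 the order went on with BACH2 at 2.64, SPIB at 0.754, POU2F2 at 0.334, IRF8 at 0.294, BCL6 at 0.0817 and PAX5 at 0.0044 CPM per kb, and of these neighbours only POU2F2 and IRF8 had libraries that overlapped. In H929 POU2F2, at 4.50 CPM per kb, stood above BACH2 at 2.51, and BCL6 followed at 0.0529. SPIB at 0.0227, IRF8 at 0.0173 and PAX5 at 0.011 CPM per kb ended the order in H929, and each of these overlapped its neighbour within the last 3. With dBRD9-A the order of the means stayed as it was in each line, although in OPM2 the libraries of SPIB and POU2F2 then overlapped.

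**Figure D1:**
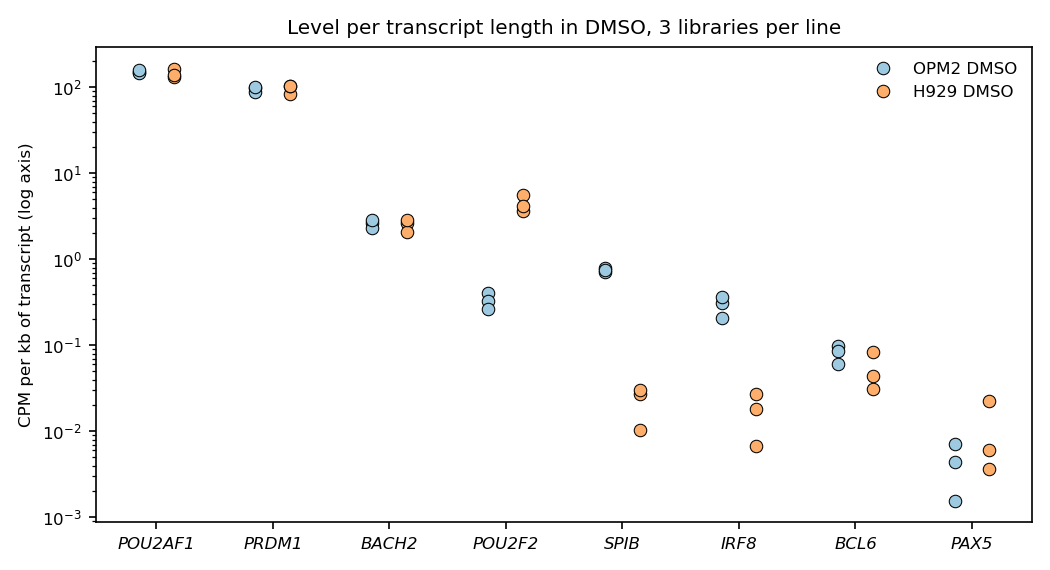
Level of the 8 genes in DMSO, in CPM per kb of transcript on a log axis, with 1 point per library (blue OPM2, orange H929). POU2AF1 and PRDM1 are the 2 highest genes in both lines, whereas POU2F2 is higher in H929 and SPIB and IRF8 are higher in OPM2.

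The rows of the table are RefSeq transcripts, and reads shared by several transcripts of a gene were counted for each. PAX5 had 13 rows with identical counts, and IRF8 and POU2AF1 had 1 row each. PRDM1 had a pair: NM_001198, the longer form, and NM_182907, a shorter form that lacks the first exons and is known as Blimp-1 beta. Its count was 93.9 ± 0.20% of that of NM_001198 in OPM2 with DMSO, 92.6 ± 0.40% in OPM2 with dBRD9-A, 92.5 ± 0.26% in H929 with DMSO and 92.3 ± 0.72% in H929 with dBRD9-A (SD, n = 3). The OPM2 DMSO libraries, from 93.6% to 94.02%, did not overlap the OPM2 dBRD9-A or the H929 DMSO libraries, but an exact two-sided permutation test of 3 libraries against 3 cannot go below p = 0.1, which both comparisons reached (adjusted p = 0.3 over 6 comparisons, exact permutation test). Since the 2 rows share nearly all of their reads, the share says little about the beta form itself.

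Promoter sequences came from a table of RefSeq start sites (GRCh38.p14), in which 7 of the 8 genes, all but POU2AF1, were matched to 10 starts. The deposited counts are on another build, so no position below comes from them. Windows of 300 bases (250 before and 50 after each start) were searched on both strands for ATGCAAAT (the octamer), TGAGTCA (core of the Maf and BACH element, shared with AP-1), GAAAGTGA (PRDM1 and IRF), GGAANNGAA (ETS-IRF composite), TTCCTAGAA (BCL6) and CACGTG (E-box). Over all 35116 windows of the table these were found in 1.77%, 4.95%, 1.44%, 7.79%, 0.373% and 7.26%. The second PRDM1 start, on the plus strand of chromosome 6, is shown because its window held a pair of them, a TGAGTCA match on the minus strand at -42 to -36 and a GGAANNGAA match at -12 to -4. In its 250 bases before the start (chr6:106098691-106098940) the capitals mark both matches.
PRDM1 start 2: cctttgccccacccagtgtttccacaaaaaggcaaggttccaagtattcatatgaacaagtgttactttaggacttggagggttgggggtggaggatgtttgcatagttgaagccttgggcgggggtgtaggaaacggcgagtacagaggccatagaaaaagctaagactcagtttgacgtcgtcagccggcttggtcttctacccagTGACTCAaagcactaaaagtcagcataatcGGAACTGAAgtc
The first PRDM1 window held none of the 6 motifs.

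Both BCL6 starts held a match, and 30 bases around each are shown with the match in capitals. The first start had a BCL6 motif at +37 to +45, on the minus strand relative to the gene, and the second held the motif TGAGTCA from -77 to -71.
BCL6 start 1: tggtgatgcaagaagtTTCTAGGAAaggcc
BCL6 start 2: gcatctggagTGAGTCAttgccacttgtca
The octamer, GAAAGTGA and CACGTG were found in none of the 10 windows. The 250 bases before the starts of BACH2 (chr6:90296844-90297093, minus strand) and POU2F2 (chr19:42132447-42132696, minus strand) are given because these genes rose with dBRD9-A, BACH2 in OPM2 and POU2F2 in both lines. Neither held any of the 6 motifs, and they are 73.6% and 66.4% G or C.
BACH2 start 1: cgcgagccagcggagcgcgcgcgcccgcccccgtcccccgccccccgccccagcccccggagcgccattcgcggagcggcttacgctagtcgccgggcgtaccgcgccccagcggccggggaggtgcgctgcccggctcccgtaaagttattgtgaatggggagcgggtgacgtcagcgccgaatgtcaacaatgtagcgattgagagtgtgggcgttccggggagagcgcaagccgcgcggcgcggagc
POU2F2 start 1: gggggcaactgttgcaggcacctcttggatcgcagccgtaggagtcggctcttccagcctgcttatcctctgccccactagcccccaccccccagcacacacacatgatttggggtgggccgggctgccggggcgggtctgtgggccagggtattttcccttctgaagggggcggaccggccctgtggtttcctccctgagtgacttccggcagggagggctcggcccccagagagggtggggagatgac
A match is a match of letters only, and binding was not measured.

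In DMSO the lines differed in 3 of the 7 members that could be tested: POU2F2 was higher in H929, and SPIB and IRF8 were higher in OPM2. PRDM1, POU2AF1 and BACH2 lay at nearly the same level in both lines. A gene was called here when edgeR's quasi-likelihood test gave a Benjamini-Hochberg adjusted p under 0.05 over 16408 genes and the log2 difference was at least 1 either way, and 36.3% of all genes tested were called. The 3 of 7 members are therefore close to the background share. PAX5 did not pass the low-count filter and was not tested. IRF8 and SPIB had at most 9 counts in any H929 library and passed that filter only through their OPM2 counts. A line difference was thus close to a condition of their being tested, and the 3 of 7 are to be read with this.

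PRDM1, the repressor that drives plasma cell differentiation, was at 502, 455 and 524 CPM in the 3 OPM2 DMSO libraries and at 438, 532 and 535 CPM in those of H929. The ranges overlapped, with a log2 difference of 0.02 (95% interval -0.30 to 0.34, H929 minus OPM2). POU2AF1 was at 452, 445 and 478 CPM in OPM2 and at 399, 501 and 421 CPM in H929, and its ranges overlapped too (log2 difference -0.06, interval -0.36 to 0.24).

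BACH2, a repressor that holds back PRDM1 in B cells, was at 24.8, 21.5 and 27.0 CPM in OPM2 and at 24.5, 19.1 and 26.3 CPM in H929 with DMSO. These overlapped (log2 difference -0.07, interval -0.40 to 0.26). BCL6, the master repressor of germinal centre B cells, gave 23, 23 and 17 counts in OPM2 and 7, 9 and 17 counts in H929. At this depth the log2 difference of -0.63 had an interval from -1.48 to 0.23 and was not called. Without H929 DMSO replicate 3, the H929 library with 17 counts, it was -1.16 and was called (edgeR adjusted p = 0.036). PAX5, the factor that fixes B cell identity, gave 4, 1 and 3 counts in OPM2 and 2, 3 and 11 counts in H929, in libraries where 3 counts correspond to between 0.0389 and 0.0542 CPM.

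IRF8 was detected in OPM2 at 0.833, 0.959 and 0.558 CPM (43 to 70 counts) and in H929 at 0.0484, 0.0178 and 0.0723 CPM, which were 3, 1 and 4 counts. The lines did not overlap, with a log2 difference of -4.02 ± 0.50 (SE, edgeR adjusted p = 1.79e-05). SPIB was at 2.83, 2.52 and 2.62 CPM in OPM2 and at 0.0968, 0.107 and 0.0361 CPM (6, 6 and 2 counts) in H929. Its log2 difference was -5.01 ± 0.64 (edgeR adjusted p = 2.29e-05). Both remained called in each of the alternatives that gave a value, 22 for IRF8 and 23 for SPIB. The size of these differences is limited by the few H929 counts, and both genes passed the low-count filter only through OPM2.

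POU2F2 ran the other way, at 2.83, 2.28 and 1.86 CPM in OPM2 and 39.2, 25.6 and 28.9 CPM in H929. Its lowest H929 library lay far above its highest OPM2 library, and the log2 difference was 3.75 ± 0.26 (edgeR adjusted p = 1.1e-07). It was called in all 23 alternatives. The 4 POU2F2 rows include NM_001207026, a transcript of 1703 bases whose count was 22.8 ± 7.74% of that of the longest row in OPM2 and 18.7 ± 1.71% in H929 with DMSO (exact permutation p = 0.4, n = 3 per line, adjusted p = 0.6).

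Over all 16408 genes 3505 were called higher and 2455 lower in H929 than in OPM2, and the list counts here are to be read beside this. Among 33 tested transcription factors of the B lineage other than these members, 8 were higher and 11 lower in H929 than in OPM2. BCL11A, a zinc finger factor of early lymphoid cells, was at -5.63 ± 0.20 on the log2 scale (H929 minus OPM2, SE). MAF was at 1.71 ± 0.20 and ID3, an inhibitor of E proteins, at 2.51 ± 0.22. Of 20 tested B cell genes that PAX5 activates or that plasma cells lose, 10 were higher and 5 lower in H929. BLNK, an adaptor of the B cell receptor, was at -5.35 ± 0.35 and LEF1 at -1.56 ± 0.15. Of 19 plasma cell genes, 7 were higher and 1 lower in H929. DERL3, of endoplasmic reticulum degradation, was at 4.05 ± 0.28, ELL2, an elongation factor that sets antibody mRNA processing, at 2.31 ± 0.24, and the surface receptor SLAMF7 at -1.79 ± 0.15. The edgeR adjusted p of these 8 genes ran from 3.1e-10 to 1.23e-05, and each call held in 23 of 23 alternatives. The median log2 difference was -0.37 for the factors, 1.13 for the B cell genes and 0.65 for the plasma cell genes, against 0.05 over all genes.

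**Figure D2:**
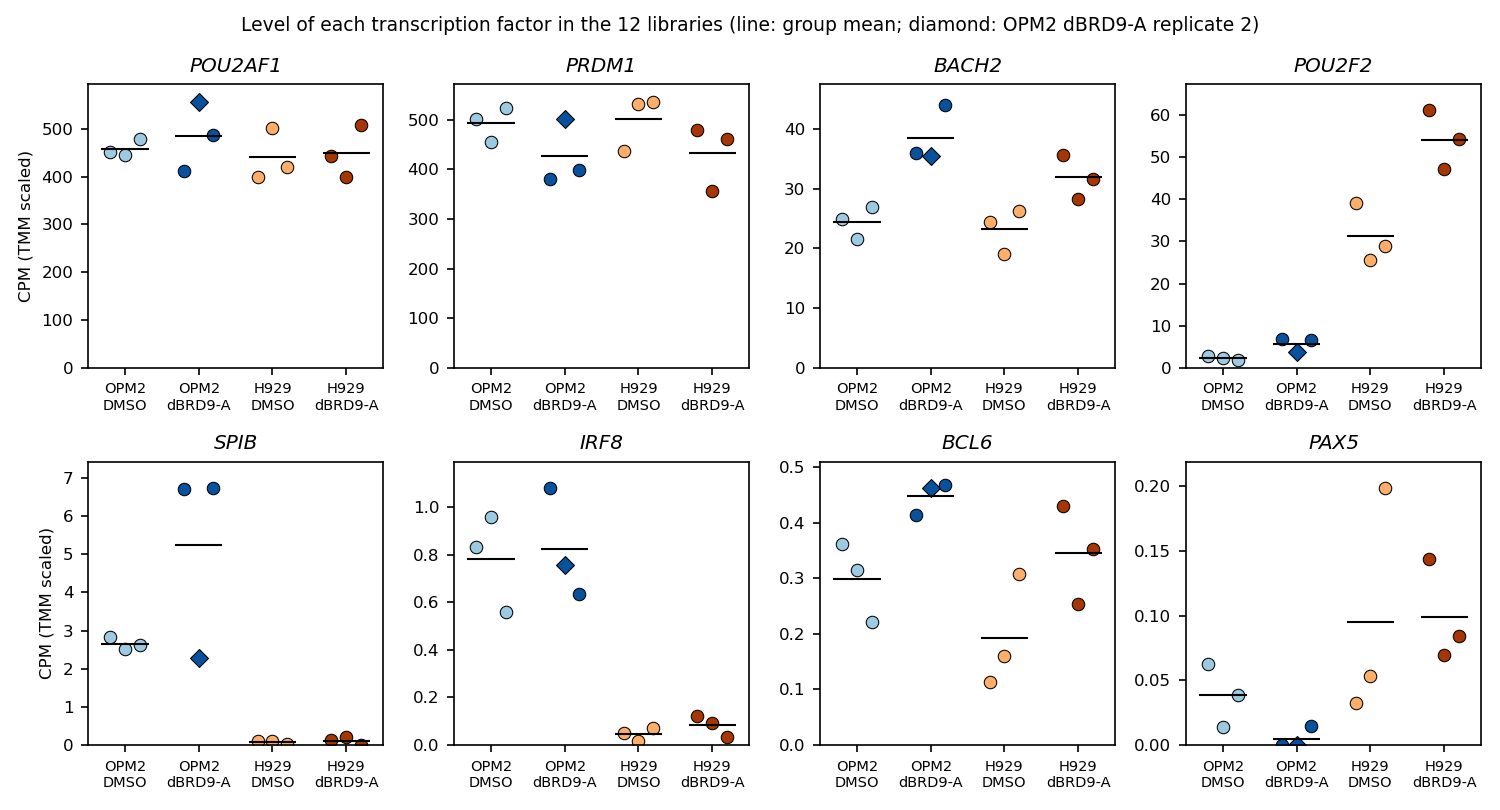
CPM of each gene in the 12 libraries, 1 panel per gene, with each axis starting at 0, bars at group means and a diamond for OPM2 dBRD9-A replicate 2. BACH2 and POU2F2 are higher in every dBRD9-A library of a line than in every DMSO library of that line, while SPIB is raised in 2 of 3 OPM2 dBRD9-A libraries.

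In OPM2, dBRD9-A was followed by higher BACH2 and POU2F2, while PRDM1 and POU2AF1, the abundant members, were not called. BACH2 went from a mean of 24.5 ± 2.74 to 38.4 ± 4.77 CPM and POU2F2 from 2.32 ± 0.49 to 5.69 ± 1.76 CPM (SD, n = 3). Of 7 members tested, 2 were called, both higher, where calling now needs only an adjusted p under 0.05. Over all genes 17.4% were called and 10.1% were called higher. SPIB was higher in replicates 1 and 3 but not in replicate 2, and was not called.

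The BACH2 libraries were at 35.9, 35.5 and 43.9 CPM with dBRD9-A, all above the 21.5 to 27.0 CPM of DMSO. The log2 fold change was 0.65 ± 0.15 (SE, edgeR adjusted p = 0.0134, range over alternatives 0.00018 to 0.073). It was not called without OPM2 DMSO replicate 1, without OPM2 DMSO replicate 2 or with the OPM2 libraries fitted alone, and was called in the other 20 of 23 alternatives. Without OPM2 dBRD9-A replicate 2 it was 0.70 (edgeR adjusted p = 0.00198). BACH2 overlaps an antisense gene in GENCODE, as BCL6, PAX5 and POU2AF1 do, and because how the counting treated strand is not stated in the sources used here, reads from the antisense partner cannot be told apart. SPIB overlaps a gene on its own strand in GENCODE, whose reads no strand setting would separate.

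POU2F2 was at 6.77, 3.66 and 6.64 CPM with dBRD9-A against 1.86 to 2.83 with DMSO, so that replicate 2 lay lowest in its group and still above DMSO. The log2 fold change was 1.32 ± 0.25 (edgeR adjusted p = 0.00466) and was called in 22 of 23 alternatives, all but the fit of the OPM2 libraries alone (range of adjusted p 7.44e-06 to 0.058). Without replicate 2 it was 1.53 (edgeR adjusted p = 5.2e-05). The short POU2F2 row NM_001207026 had 95, 2 and 92 counts with dBRD9-A, or 20.7%, 2.30% and 20.9% of the longest row. In replicate 2 it was thus nearly missing.

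SPIB was at 6.71, 2.27 and 6.73 CPM with dBRD9-A and at 2.52 to 2.83 with DMSO. Replicates 1 and 3 lay above all DMSO libraries and replicate 2 below them. The log2 fold change of 1.003 ± 0.44 was not called (edgeR adjusted p = 0.136). Without replicate 2 it was 1.33 and was called (edgeR adjusted p = 0.00147). IRF8 was at 1.08, 0.758 and 0.634 CPM and overlapped DMSO at 0.558 to 0.959, with a log2 fold change of 0.09 (interval -0.69 to 0.86).

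PRDM1 was at 380.2, 501 and 399 CPM with dBRD9-A, replicate 2 being the high one. Its log2 fold change was -0.21 (interval -0.53 to 0.11, edgeR adjusted p = 0.346). Without replicate 2 both remaining libraries lay below the DMSO range of 455 to 524 CPM, and the fold change of -0.35 was called (edgeR adjusted p = 0.0428). POU2AF1 was at 412, 557 and 488 CPM and overlapped DMSO (0.08, interval -0.22 to 0.38), and its fold change was -0.04 without replicate 2. BCL6 gave 28, 11 and 31 counts, or 0.414, 0.463 and 0.468 CPM against 0.221 to 0.361 with DMSO. Its log2 fold change of 0.58 was not called (interval -0.22 to 1.38), although the libraries did not overlap. PAX5 gave 0, 0 and 1 counts with dBRD9-A, where 3 counts, the upper limit for a count of 0, correspond to 0.0444, 0.126 and 0.0453 CPM. No fold is given for PAX5 because its counts lie at this limit in both groups. In all, 4 of 7 members were called without replicate 2, when 31.7% of all genes were.

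**Figure D3:**
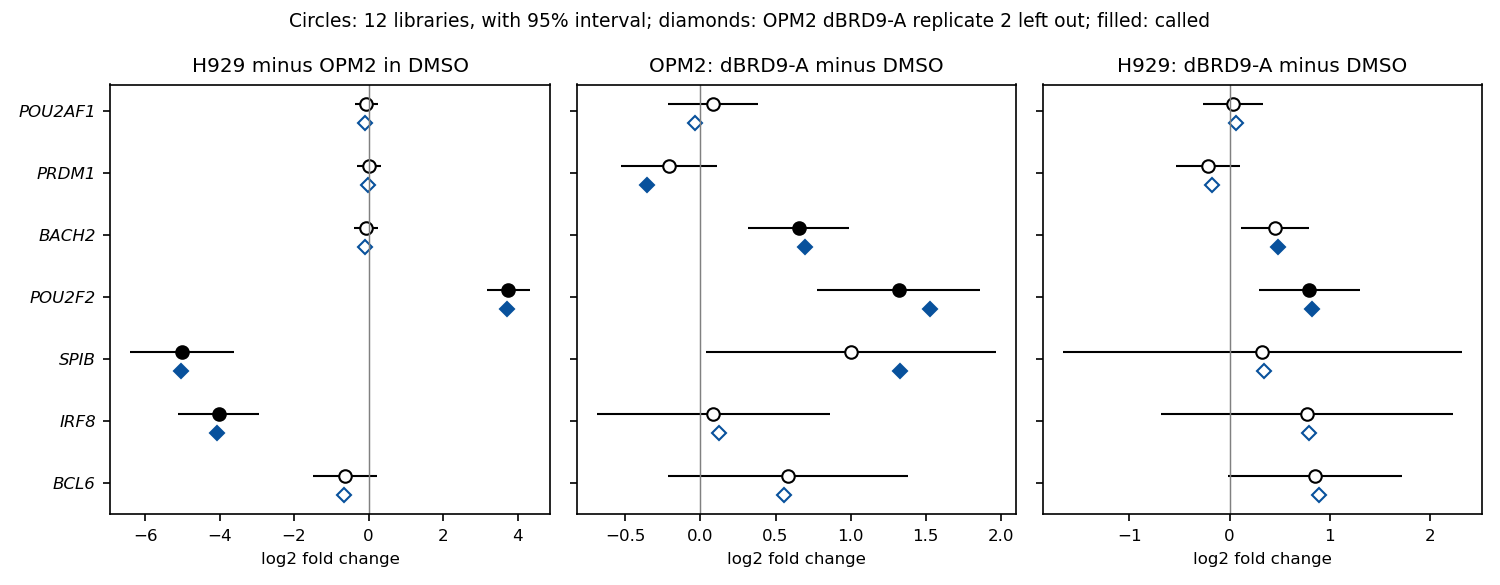
Log2 fold changes of the 7 tested genes in 3 comparisons, with all 12 libraries (circles, with 95% intervals) and without OPM2 dBRD9-A replicate 2 (diamonds), filled where called. POU2F2 is called in every panel, and PRDM1 and SPIB in OPM2 are called without that replicate.

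Around these members in OPM2, 3 of 33 other B-lineage factors rose, 4 fell and 26 did not pass the test. Over all 16408 genes 1652 were called higher and 1205 lower. MAF rose by 1.30 ± 0.20 and ZBTB20, a zinc finger transcription factor, by 0.87 ± 0.26 on the log2 scale. MYB, a factor of early haematopoietic cells, fell by 1.08 ± 0.16 and SOX4 fell by 0.76 ± 0.16. Without replicate 2, 7 of 34 rose and 7 fell. Over all 16653 genes then tested 2686 were called higher and 2591 lower, and the list counts without replicate 2 are to be read beside this. Of 20 B cell genes, BLNK rose by 1.30 ± 0.26. CR2, a complement receptor, fell by 1.03 and BLK, a B cell kinase, fell by 0.95, both at a low level and named after their values were seen (7 and 15 of 23 alternatives ended these calls). Of 19 plasma cell genes 4 fell, among them SLAMF7 by 1.63 ± 0.15 and MZB1, a chaperone of antibody assembly, by 1.57 ± 0.19. Leaving replicate 2 out, 5 of the 19 fell and 4 rose. The ZBTB20 call was lost in 11 of 23 alternatives, and without replicate 2 its value was 0.54, still called.

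Of 7 tested genes that PRDM1 is known to repress, MYC fell by 1.33 ± 0.26 and the other 6 did not pass the test. Without replicate 2, 2 of the 7 rose and 1 fell. SPIB and BCL6 belong to this list and to the members. Of 12 genes known to be repressed by BCL6, 2 fell, among them CD44, an adhesion receptor, by 0.87 ± 0.11, and 6 fell and 1 rose without replicate 2. Of 22 cofactors and partners, 3 were called: TLE4, a Groucho corepressor, rose by 0.54 ± 0.11, MAFK, a small Maf partner of BACH2, fell by 0.995 ± 0.25, and PRMT5, an arginine methyltransferase that works with PRDM1, fell by 0.60 ± 0.11. Without replicate 2, 3 of these 22 rose and 4 fell, and MAFK was at -0.748. Among 8 interferon regulatory factors IRF9, a subunit of the interferon-stimulated complex ISGF3, rose by 0.68 ± 0.19, a call lost in 10 of 23 alternatives. The edgeR adjusted p of the genes named here with an SE lay between 4.54e-05 and 0.0369. The median log2 fold change was 0.11 for the B-lineage factors, 0.35 for the B cell genes and -0.24 for the plasma cell genes, against 0.03 over all genes.

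Markers of other cell types moved in the same libraries. CD68, a lysosomal marker of macrophages, rose by 2.79 ± 0.19, FN1, fibronectin, by 1.95 ± 0.14, and HBD, delta globin, fell by 1.28 ± 0.29 (edgeR adjusted p up to 0.0112). The 7 myeloid markers summed to between 4.13 and 6.36 CPM with DMSO and between 28.3 and 37.0 CPM with dBRD9-A, with MPO at 0, and CD68 alone was between 3.60 and 5.88 and between 27.6 and 36.3 CPM. The 8 stromal and epithelial markers summed to between 13.0 and 17.8 CPM and between 57.5 and 68.4 CPM, with COL1A2 at 0, and FN1 alone was between 12.8 and 17.7 and between 57.1 and 67.3 CPM. The 5 erythroid markers summed to between 62.4 and 85.9 CPM and between 28.8 and 38.7 CPM, with HBA1 at 0, and HBD alone was between 56.5 and 79.4 and between 24.3 and 35.5 CPM. T cell and NK cell markers summed to at most 1.39 CPM. Their part in the results above was not tested, and in bulk RNA fewer cells of a kind and less RNA per cell cannot be told apart.

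In H929, dBRD9-A was followed by higher POU2F2, and no other member was called. POU2F2 went from 31.2 ± 7.06 to 54.2 ± 7.01 CPM (SD, n = 3). BACH2 was at 23.3 ± 3.73 CPM with DMSO and 31.9 ± 3.67 CPM with dBRD9-A and was not called, and the libraries of PRDM1 and POU2AF1 overlapped. Of 7 members tested 1 was called, where 13.0% of all genes were called and 7.33% were called higher.

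POU2F2 was at 61.1, 47.1 and 54.4 CPM with dBRD9-A, all above the DMSO libraries at 39.2, 25.6 and 28.9 CPM. The log2 fold change was 0.80 ± 0.23 (SE, edgeR adjusted p = 0.0421). This call was near the threshold and held in 14 of 23 alternatives, with adjusted p from 5.07e-05 to 0.187. It was lost with the sum over transcripts, without any 1 of the 3 OPM2 DMSO libraries, without H929 DMSO replicate 2 or 3 and without any 1 of the 3 H929 dBRD9-A libraries. Without OPM2 dBRD9-A replicate 2, which enters through the shared spread, it was 0.83 (edgeR adjusted p = 0.00068). The short row NM_001207026 was at 18.7 ± 1.71% of the longest row with DMSO and 19.3 ± 1.77% with dBRD9-A (exact permutation p = 0.5, n = 3, adjusted p = 0.6).

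BACH2 was at 35.7, 28.3 and 31.7 CPM with dBRD9-A, above the DMSO libraries at 24.5, 19.1 and 26.3 CPM. Its log2 fold change was 0.45 ± 0.15 and was not called (edgeR adjusted p = 0.0738). It was called in 8 of 23 alternatives, among them the one without OPM2 dBRD9-A replicate 2 (0.49, edgeR adjusted p = 0.00994). With that library left out 2 of 7 members were called, and 35.7% of all genes.

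PRDM1 was at 480, 357 and 462 CPM with dBRD9-A and overlapped DMSO (log2 fold change -0.21, interval -0.53 to 0.11). POU2AF1 was at 444, 399 and 508 CPM and overlapped as well (0.03, interval -0.27 to 0.33). BCL6 gave 21, 11 and 21 counts against 7, 9 and 17 with DMSO, a log2 fold change of 0.85 (interval -0.02 to 1.72) that was not called.

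IRF8 gave 6, 4 and 2 counts and SPIB 6, 9 and 0 counts in H929 with dBRD9-A, in libraries where 3 counts correspond to between 0.0505 and 0.0693 CPM. Their intervals ran from -0.68 to 2.23 and from -1.66 to 2.32 on the log2 scale, so that only large changes could have been detected at this depth. PAX5 gave 7, 3 and 5 counts.

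Among 33 other B-lineage factors in H929, 3 rose, 3 fell and 27 did not pass the test. Over all 16408 genes 1203 were called higher and 931 lower. ETS1, an ETS factor of lymphocytes, rose by 0.69 ± 0.16 and IKZF1, Ikaros, rose by 0.56 ± 0.11, while MYB fell by 1.80 ± 0.17 and KLF2, a factor of resting lymphocytes, fell by 1.03 ± 0.21. Without OPM2 dBRD9-A replicate 2, 14 of 34 rose and 5 fell. Over all 16653 genes then tested in H929, 3198 were called higher and 2748 lower. The H929 list counts without that library are to be read beside this. Of 20 B cell genes 3 rose: BLNK by 1.56 ± 0.39, SWAP70, a signalling protein of B cells, by 0.49 ± 0.13, and CIITA, the activator of MHC class II genes and a known PRDM1 target, by 1.27 ± 0.35. CIITA was named after its values were seen, and 5 of 23 alternatives ended its call. In OPM2 CIITA was at 3.87 ± 0.794 CPM with DMSO and 2.59 ± 0.824 with dBRD9-A (SD) and was not called. The BLNK call in H929, on 36 counts with DMSO and 92 with dBRD9-A, was lost in 4 of 23 alternatives. Without that OPM2 library 6 B cell genes rose and 1 fell.

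Of 19 plasma cell genes in H929, 4 fell and 1 rose, with IGJ, the antibody joining chain, at -1.14 ± 0.13, DERL3 at -0.86 ± 0.24 and CD28, a costimulatory receptor, at 0.57 ± 0.11. Without the OPM2 library 7 fell and 4 rose. MYC fell by 1.72 ± 0.26 and CIITA rose among 7 tested genes that PRDM1 represses. Among 12 genes repressed by BCL6, 3 fell, with CCND2, cyclin D2, at -2.27 ± 0.32 and IRF4, the plasma cell regulator, at -0.72 ± 0.21, and 6 fell and 1 rose without the OPM2 library. Of 22 cofactors PRMT5 fell by 0.65 ± 0.11 and KDM1A, a histone demethylase, fell by 0.40 ± 0.11, and 6 fell and 1 rose without that library. Among the 8 interferon regulatory factors IRF9 rose by 0.88 ± 0.19, and IRF4 fell as given. The edgeR adjusted p of the genes named with an SE lay between 0.000168 and 0.045. IRF4, DERL3 and KDM1A were lost in 13, 12 and 10 of 23 alternatives. In OPM2 IRF4 was at -0.62 (interval -1.08 to -0.16) and was not called (edgeR adjusted p = 0.0643). It was called there in 6 of 23 alternatives. The difference of IRF4 responses between the lines was -0.099 (interval -0.75 to 0.55) and was not called. The median log2 fold change was 0.18 for the B-lineage factors, 0.40 for the B cell genes and -0.17 for the plasma cell genes, against -0.0019 over all genes.

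**Figure D4:**
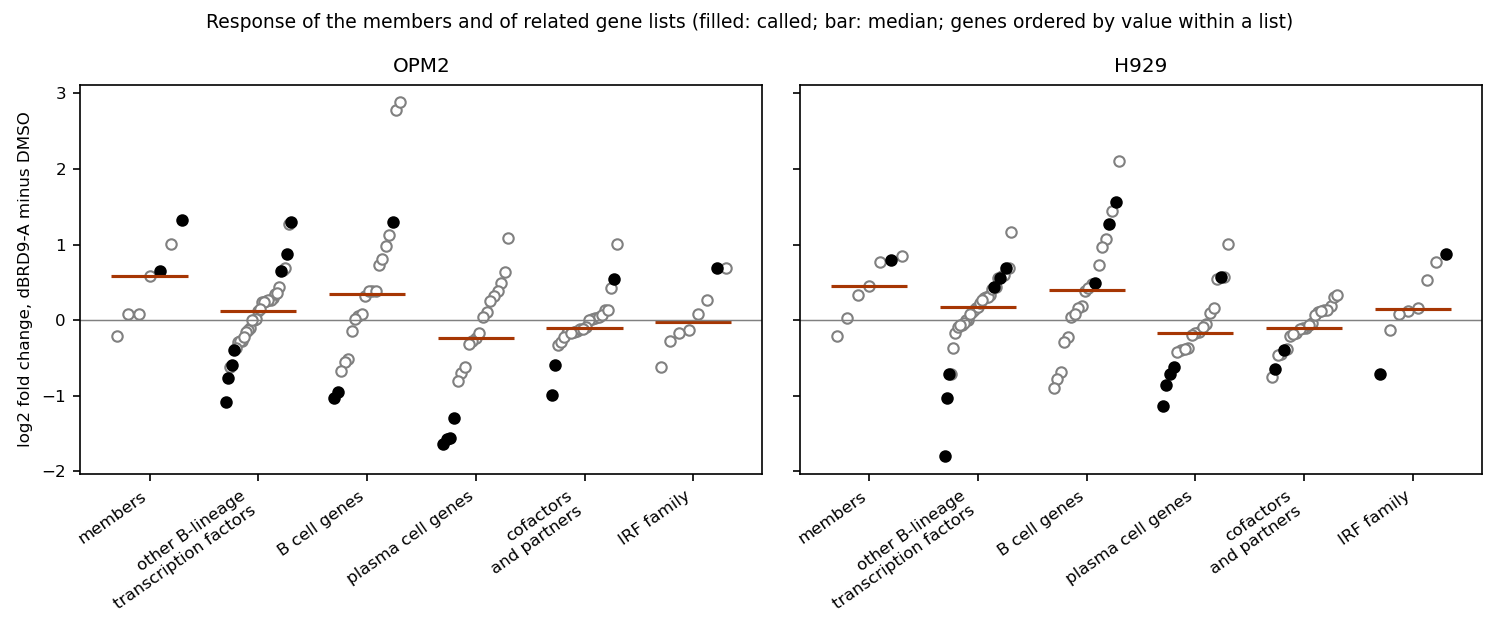
Log2 fold changes with dBRD9-A of the 7 tested genes and of 5 related lists in OPM2 and H929, with 1 point per gene, filled where called, and a bar at the median. BLNK and POU2F2 rise in both lines, and most genes of each list are not called.

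Among markers of other cell types in H929, CD68 rose by 1.19 ± 0.17 and FN1 by 1.38 ± 0.14 (edgeR adjusted p = 0.00135 and 0.000208). The myeloid markers summed to between 116 and 145 CPM with DMSO and between 274 and 308 CPM with dBRD9-A, with MPO at 0. Stromal and epithelial markers summed to between 14.2 and 17.8 CPM and between 30.3 and 42.4 CPM, with COL1A2 and COL3A1 at 0. T cell and NK cell markers summed to between 27.1 and 30.2 CPM and between 39.6 and 41.6 CPM, most of it CD3E (24.1 ± 1.21 CPM with DMSO and 37.7 ± 1.49 with dBRD9-A, SD, not called). Among these markers CD2 rose by 2.43 and GNLY fell by 1.26, both named after their values were seen. CD2 rested on a total of 11 counts with DMSO and 53 with dBRD9-A, and GNLY on 651 and 237. The erythroid markers summed to between 4.30 and 8.97 CPM and between 7.79 and 15.0 CPM. CD68 alone made up between 114 and 144 CPM of the myeloid sum with DMSO and between 266 and 303 with dBRD9-A. Their part in the results of H929 was not tested.

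The response of no member was shown to differ between the lines. By the interaction term of the edgeR fit, H929 minus OPM2, 0 of 7 members were called, 0 had an unadjusted p under 0.05 with all 12 libraries, and DESeq2 and limma-voom called 0 as well. Over all genes 0.579% were called. POU2F2 had the smallest p among the members, with a log2 difference of responses of -0.52 (interval -1.26 to 0.21, edgeR adjusted p = 0.682), and without OPM2 dBRD9-A replicate 2 it was -0.70 (edgeR unadjusted p = 0.0125, adjusted p = 0.171). BACH2 was at -0.20 (interval -0.67 to 0.27), PRDM1 at -0.0013 (-0.46 to 0.45) and POU2AF1 at -0.05 (-0.47 to 0.37). SPIB, at -0.68, had an interval from -2.95 to 1.60, since it rests on few H929 counts. These intervals leave room for differences, and a missed threshold does not show that the lines respond alike.

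For each tested member the 2 genes with the most similar profile over the 12 libraries were named, by the smallest root mean square difference of log2 CPM centred on each gene, among 16407 others. PRDM1 was closest to RGL1 and CDV3 (0.0767 and 0.0837), and POU2AF1 to SEPT11 and GUSBP9 (0.0776 and 0.085). BACH2 was closest to ELMO2 and TRIM66 (0.151 and 0.157). POU2F2 was closest to C1R and CECR1 (0.298 and 0.323), and BCL6 to DMXL2 and DNAH10 (0.305 and 0.306). IRF8 was closest to PRKAA2 and TMEM220 (0.384 and 0.402) and SPIB to ZNF154 and ZCCHC18 (0.747 and 0.988). A small value for PRDM1 and POU2AF1 goes with their small spread over the libraries, and all these values share the same libraries and depth.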

How the data were processed

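RNA of 12 libraries was used, 3 for each line and treatment. Per the labels' protocols, RNA came from a column kit and a stranded mRNA kit made the libraries. Per the submitters' processing notes, STAR, featureCounts and the builds hg19 and GRCh37 were used; versions are not given in the sources used here. According to the columns named per the file headers, each deposited table holds a raw count, an FPKM and a TPM value for 51780 RefSeq transcripts. The deposited counts were tested as they are. The deposited FPKM values, which divide the count by length and library total, gave only the transcript lengths, and the deposited TPM values were not used. A gene was its transcript with the highest mean count.

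The 8 members and 11 related gene lists were chosen with earlier results of these data known. Genes were filtered with filterByExpr, scaled by TMM and fitted with edgeR 4.0.16 (R 4.3.3), with 1 mean for each of the 4 groups and 8 residual degrees of freedom, and Benjamini-Hochberg adjustment ran over 16408 genes. An SE is the log2 fold change divided by the root of its F statistic. The code was tested on simulated data. Intervals are 95% and cover the spread of the libraries. Named with values were all members, the 2 highest and 2 lowest called genes of each list with a mean of at least 1 log2 CPM (for the lines in DMSO, of 3 lists), every list gene called for the difference of responses and the 2 genes most like each member. CR2, BLK, CIITA, CD2, GNLY and CD3E lie outside this rule. Some genes that the rule gives are not reported here. The alternatives were RLE scaling, no scaling, no low-count filter, 1 CPM in 3 libraries, DESeq2 1.42.0, limma-voom (limma 3.58.1), the replicate block, the sum over transcripts, the second transcript, each library left out, and only the groups compared. The block with OPM2 dBRD9-A replicate 2 left out was added after the data were seen. Limits from a count of 0 use 3 counts and cover counting error only.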

Additional observations from a re-analysis of the deposited data

Results flagged for a closer look

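Among the genes of the related lists, 3 differed in their response between the lines by the interaction term (H929 minus OPM2, edgeR adjusted p, n = 3 per group), and no member did. CD68, the macrophage marker, rose in both lines and less in H929, by -1.60 ± 0.25 on the log2 scale (adjusted p = 0.0146, not called in 2 of 22 alternatives). ETS1 rose in H929 and fell by 0.59 in OPM2, a difference of 1.28 ± 0.23 (adjusted p = 0.0308, not called in 9 of 22). HBD fell in OPM2 and was not called in H929, a difference of 2.09 ± 0.41 (adjusted p = 0.0477, not called in 13 of 22). Without OPM2 dBRD9-A replicate 2 they were -1.49, 1.25 and 2.04, each called. More list genes were then called: 4 B-lineage factors, 1 B cell gene, 3 plasma cell genes, 1 gene that PRDM1 represses and 3 that BCL6 represses, with some genes in more than 1 list, beside 1 myeloid and 1 erythroid marker. Calls rose over all genes too, from 95 of 16408 to 507 of 16653, so the higher list counts are not particular to these lists.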

How the results depend on the processing

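Of 1797 values for single genes under 22 alternative settings and 1 added after the data were seen, 1591 kept their direction and their side of the threshold, 138 lost a call, 23 gained one and 45 changed sign, none of which had been called. The number of genes called in DMSO between the lines stayed within 1.5 times of 5960. In OPM2 the 2857 called genes became 7243 with limma-voom and 871 with the OPM2 libraries alone, and 1381 to 5277 with a library left out; the members called, 2, became 4, 0 and 1 to 4. In H929 the 2134 became 5910 with limma-voom, 4970 with the H929 libraries alone and 812 to 5946 with a library left out. There the 1 member called became 2 without scaling, with the filter of 1 CPM, with DESeq2, with limma-voom and with the H929 libraries alone, 0 with the sum over transcripts and 0 to 2 with a library left out. Over all genes 2222 were called in H929 without scaling, 2051 with the filter of 1 CPM, 3149 with DESeq2 and 1902 with the sum over transcripts. For the difference of responses the 95 became 372 with DESeq2, 882 with limma-voom and 35 to 507 with a library left out. The highest counts with a library left out are those without OPM2 dBRD9-A replicate 2. The cause was not tested.

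Values that changed sign were as follows. For PRDM1 between the lines the values were -0.10 without scaling, -0.0088 with the sum over transcripts, -0.00035 with the second transcript, -0.0069 with the DMSO groups alone and -0.0624 to 0.0759 with a library left out. For PRDM1 in the difference of responses they were 0.0098 with RLE scaling, 0.0619 without scaling, 0.0329 without a filter, 0.0099 with DESeq2, 0.162 with limma-voom, 0.031 with the sum, 0.0145 with the second transcript and -0.0751 to 0.185 with a library left out. POU2AF1 was at -0.0658 with limma-voom in OPM2, and in the difference at 0.0139 without scaling and 0.173 with limma-voom. SPIB in H929 was at -1.03 with limma-voom. With a library left out, BACH2 between the lines ran from -0.199 to 0.0327, IRF8 in OPM2 from -0.192 to 0.2596, POU2AF1 in OPM2 from -0.0393 to 0.183 and in H929 from -0.0329 to 0.158, and SPIB in H929 from -0.463 to 1.03. In the difference of responses SPIB ran from -1.45 to 0.0497 and POU2AF1 from -0.153 to 0.107.

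The replicate numbers do not pair the samples: deviations of libraries with the same number correlated between -0.419 and 0.255 over 11467 genes. In H929 each DMSO library correlated most with a dBRD9-A library of another number: 1 with 2 at 0.483, 2 with 3 at 0.654 and 3 with 1 at 0.551. The other H929 pairs of a DMSO and a dBRD9-A library ran from -0.581 to -0.035. Deviations were taken from group means, so a high pair forces lower values in the others. The negative values are therefore no further evidence of pairing, and the pairing was picked after the correlations were seen. No fit used this pairing, and the replicate block follows the numbers, so it does not stand in for a paired fit. With the replicate block 5903 genes were called between the lines, 2109 in OPM2, 1592 in H929 and 33 for the difference, 2 members were called in H929, and PRDM1 in the difference was at 0.00063. With the replicate block and without OPM2 dBRD9-A replicate 2 the counts were 4779, 5994 and 519 for OPM2, H929 and the difference, with 4 and 2 members called in OPM2 and H929. PRDM1 was then at -0.0069 between the lines and 0.217 in the difference, and POU2AF1 at -0.0488 in OPM2 and 0.113 in the difference. The fit of 1 line alone gives no value for the difference, and low counts left PAX5 with 2 alternatives.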
